A study of Homo sapiens with 24 samples.

Results

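The genes described here encode the enzymes of the primary (azurophil) granule, which promyelocytes pack and neutrophils and monocytes carry, together with proteins that inhibit or store those enzymes. The set holds 10 genes, taken by name: the serine proteases ELANE, CTSG and PRTN3, their catalytically inactive relative AZU1, the peroxidase MPO, lysozyme (LYZ), the ribonuclease RNASE2, the inhibitors SERPINB1 and SLPI, and the storage proteoglycan SRGN. They are 10 of 19775 genes named on the array, and each gene was read from its probe set with the highest mean. All 10 passed the filter on low values (a log2 intensity of at least 4 in at least 3 arrays) and were tested among 10971 genes.

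The study asked how human leukemia cells with MLL rearrangements change their expression when the histone methyltransferase DOT1L is inhibited with the small molecule EPZ004777. MV4-11 cells, labelled a biphenotypic B myelomonocytic leukemia with an MLL-AF4 rearrangement and grown in IMDM with 10% FBS, were given 3 uM EPZ004777 for 2, 4 or 6 days, and matched cells received a vehicle of 0.1% DMSO on the same days. MOLM-13 cells, from an acute myeloid leukemia with MLL-AF9 and grown in RPMI with 10% FBS, were given 3 uM EPZ004777 or vehicle for 6 days. Each of the 8 groups had 3 arrays, 24 in all, labelled as biological replicates; their origin, and whether one culture was followed over the days, was not stated, so the p-values measure the spread between these samples. Line, growth medium and fusion changed together and cannot be told apart.

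Primary granule proteins are made during a short window of myeloid development, at the promyelocyte stage, and their genes are controlled by factors that include PU.1, C/EBP family members and MYB. The serine proteases are made as inactive precursors, cut to their active form by cathepsin C (CTSC) and stored on the chondroitin sulfate chains of serglycin (SRGN). SERPINB1, a serpin of the cytosol, and SLPI, a secreted inhibitor, bind neutrophil elastase (the product of ELANE) and cathepsin G (the product of CTSG). Because RNA was taken from whole cultures, fewer cells of a type and less RNA per cell cannot be told apart.

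ELANE, PRTN3 and AZU1 lie side by side on chromosome 19 and CTSG lies on chromosome 14 with RNASE2. The sequences before the starts of CTSG, PRTN3 and AZU1 are shown because CTSG had the largest treatment difference among the serine proteases while PRTN3 and AZU1, with near-equal differences at day 6, share a stretch of letters. They are the 250 bases before each start, 5′ to 3′ on the gene's strand, from RefSeq on GRCh38.p14. CTSG is at chr14:24576251-24576500 on the minus strand, PRTN3 at chr19:840749-840998 on the plus strand and AZU1 at chr19:827587-827836 on the plus strand. Capitals mark matches, on either strand, to GAGGAA, a core bound by PU.1, and to TTNNGNAA, a form of the C/EBP site.
CTSG: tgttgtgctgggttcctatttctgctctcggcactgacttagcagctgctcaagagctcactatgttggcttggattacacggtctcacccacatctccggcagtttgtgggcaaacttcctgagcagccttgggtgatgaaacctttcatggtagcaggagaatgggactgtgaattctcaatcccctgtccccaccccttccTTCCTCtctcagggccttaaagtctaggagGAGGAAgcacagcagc
PRTN3: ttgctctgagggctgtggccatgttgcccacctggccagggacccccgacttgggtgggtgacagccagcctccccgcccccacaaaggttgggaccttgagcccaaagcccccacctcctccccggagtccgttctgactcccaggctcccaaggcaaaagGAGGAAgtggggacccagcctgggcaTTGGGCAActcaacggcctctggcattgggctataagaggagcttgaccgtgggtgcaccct
AZU1: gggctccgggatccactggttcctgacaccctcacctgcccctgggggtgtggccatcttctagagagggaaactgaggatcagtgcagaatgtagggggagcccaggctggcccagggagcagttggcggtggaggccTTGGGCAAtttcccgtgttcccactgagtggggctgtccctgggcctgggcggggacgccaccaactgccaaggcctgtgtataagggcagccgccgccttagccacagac

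The CTSG window held GAGGAA at bases 16 to 11 before the start and, on the opposite strand, at bases 46 to 41. PRTN3 held GAGGAA at bases 88 to 83, and both PRTN3 (bases 62 to 55) and AZU1 (bases 111 to 104) held the same 8 letters, TTGGGCAA. No capitalised match overlapped another. GAGGAA was present in 23.6% and TTNNGNAA in 33.2% of 35116 promoter windows of the same length, so neither is rare. AACNG, a MYB core, was found in all 3 of these windows and in 70.6% of all windows. TATAA was found in PRTN3 and AZU1 at bases 31 to 27 and in 18.9% of all windows, and was not in the CTSG window. The motifs were chosen after the sequences had been seen, and a match is a description of letters only. Of the other members, RNASE2 and SERPINB1 also had an entry, while MPO, ELANE, LYZ, SLPI and SRGN are named only.

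All values are log2 of the deposited intensity, which ran between 2.19 and 16.1, and levels of different genes are not compared with each other because each probe set has its own response. Replicate arrays correlated with their group at 0.9892 to 0.9981. On the array's control probes the 3′ signal exceeded the 5′ signal by 0.53 to 0.86 in 17 MV4-11 arrays, and by 1.91 in replicate 3 of the treated MV4-11 cells at day 6. Treated and vehicle MV4-11 arrays did not overlap in this excess on any day. With EPZ004777 it was lower at day 2 (0.53 to 0.57, against 0.64 to 0.68) and at day 4 (0.59 to 0.67, against 0.70 to 0.82). At day 6 it was higher (0.83 to 1.91, against 0.57 to 0.58). In MOLM-13 cells the excess was 2.10, 2.84 and 2.31 with EPZ004777 and 1.15, 0.95 and 1.13 with vehicle. This measure of RNA length thus moved with treatment in both lines, and furthest in MOLM-13 cells. Where leaving out the array that stands apart, or adding this control signal as a covariate, changed the call of a member, the value is given beside the result.

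**Figure D1:**
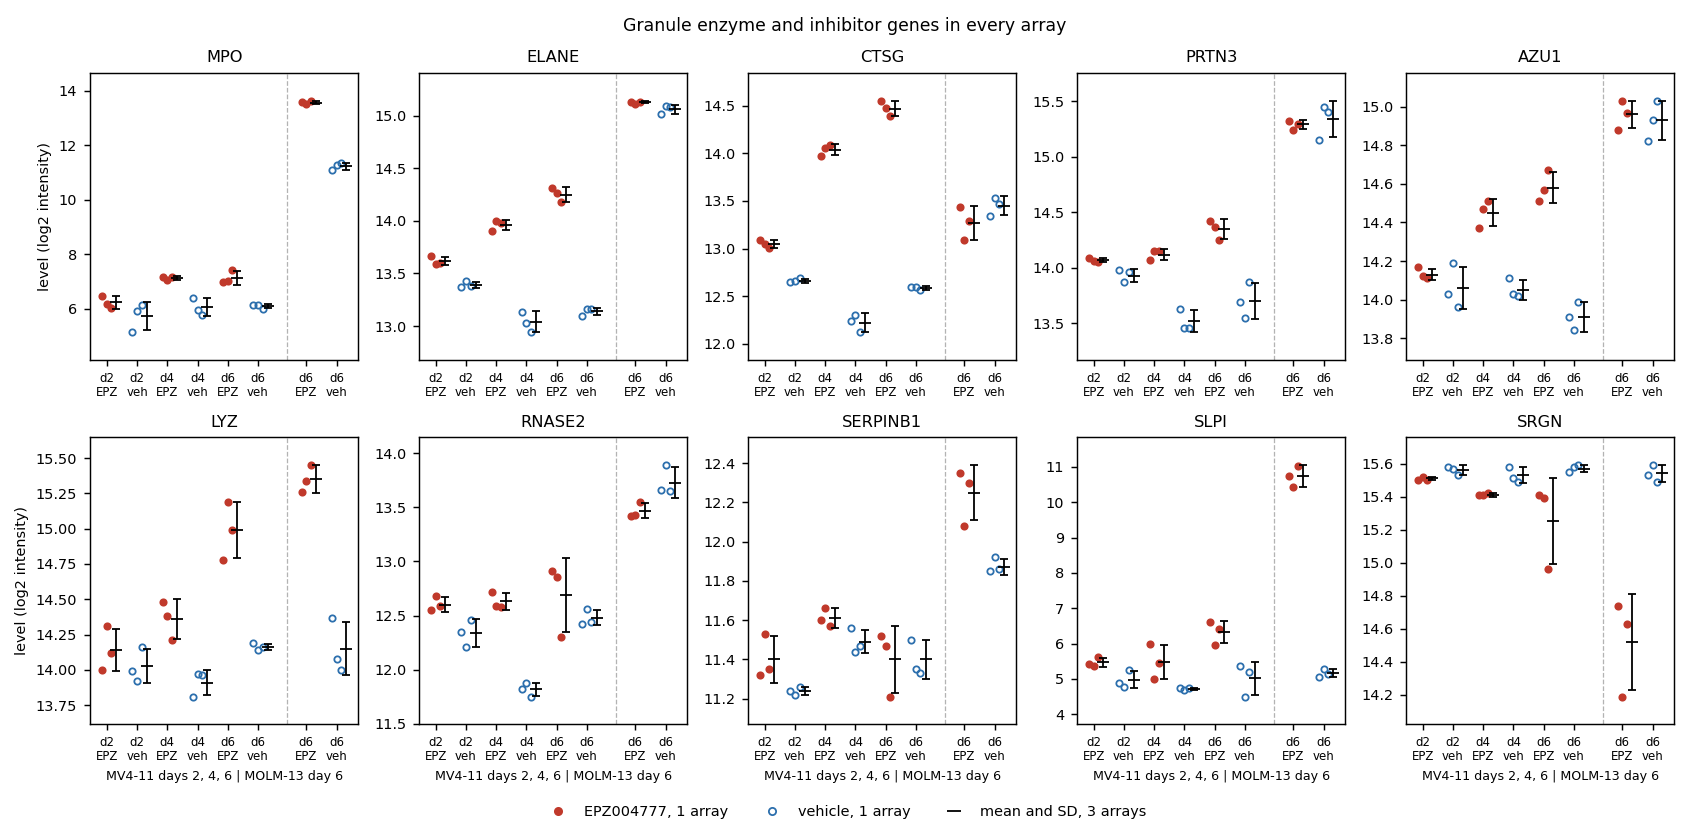
Log2 intensity of the 10 primary granule genes on each of 24 arrays, one panel per gene, with the 8 groups of line, day and treatment on the x axis. Filled red points are EPZ004777 arrays and open blue points vehicle arrays, with the mean and SD of 3 arrays. CTSG climbs with time in treated MV4-11 cells to 14.47 at day 6, while the highest SLPI group is treated MOLM-13 cells, at 10.74.

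In MV4-11 cells the protease genes rose with EPZ004777, more at the later days, and CTSG rose furthest. At day 2 only CTSG and ELANE among the 10 genes were higher and none was lower, against 8.82% of all tested genes higher and 3.68% lower. At day 4, 8 were higher and none lower (25.2% and 21.0% of all genes), and at day 6, 7 were higher and 1 lower (33.6% and 28.4%). The median difference over the 10 genes was 0.19, 0.68 and 0.75 at days 2, 4 and 6, and over all tested genes 0.02, 0.01 and 0.04. A gene counted as called at a limma adjusted p under 0.05.

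CTSG encodes cathepsin G, a chymotrypsin-like protease. At day 2 its treated arrays read 13.09, 13.05 and 13.01, against 12.65, 12.66 and 12.69 with vehicle. At day 4 they read 13.97, 14.06 and 14.09, against 12.24, 12.30 and 12.12, and at day 6 they read 14.55, 14.48 and 14.39, against 12.60, 12.60 and 12.56 with vehicle. Treated and vehicle arrays did not overlap on any day, and the treated arrays of each later day stood above all those of the day before. The log2 difference was 0.39 ± 0.07 (SE) at day 2 (adjusted p = 0.00165), 1.82 ± 0.07 at day 4 (adjusted p = 3.9e-13) and 1.89 ± 0.07 at day 6 (adjusted p = 9.04e-14), a 3.7-fold higher level at day 6.

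ELANE, which encodes neutrophil elastase, followed at a smaller size. At day 6 its treated arrays read 14.31, 14.27 and 14.18, against 13.10, 13.16 and 13.16 with vehicle, with no overlap. The difference was 0.23 ± 0.05 at day 2 (adjusted p = 0.00646), 0.93 ± 0.05 at day 4 (adjusted p = 3.56e-11) and 1.11 ± 0.05 at day 6 (adjusted p = 1.19e-12). Of the pair next to it on chromosome 19, PRTN3 encodes proteinase 3, the target of autoantibodies in vasculitis, and AZU1 encodes azurocidin, an antimicrobial protein without protease activity.

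PRTN3 read 14.42, 14.37 and 14.25 in treated MV4-11 cells at day 6, against 13.69, 13.55 and 13.87 with vehicle. AZU1 read 14.51, 14.57 and 14.67, against 13.91, 13.84 and 13.99. Neither gene's arrays overlapped between treatments at day 6. The difference for PRTN3 was 0.13 ± 0.08 at day 2 (adjusted p = 0.36), 0.60 ± 0.08 at day 4 and 0.65 ± 0.08 at day 6 (adjusted p = 1.11e-06). For AZU1 it was 0.07 ± 0.07 at day 2 (adjusted p = 0.606), 0.40 ± 0.07 at day 4 and 0.67 ± 0.07 at day 6 (adjusted p = 8.77e-08).

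MPO, the myeloperoxidase that makes hypochlorous acid in the phagosome, is a defining transcript of primary granules, and it was low in MV4-11 cells. Its arrays read 6.97, 7.01 and 7.41 in treated MV4-11 cells at day 6, against 6.12, 6.14 and 6.00 with vehicle. At day 4 they read 7.15, 7.06 and 7.18, against 6.41, 5.94 and 5.78 with vehicle. The treated arrays were above all vehicle arrays on both days. The difference was 0.51 ± 0.20 at day 2, where the arrays overlapped and the test was not passed (adjusted p = 0.103), 1.08 ± 0.20 at day 4 (adjusted p = 0.000136) and 1.04 ± 0.20 at day 6 (adjusted p = 0.000122). Leaving out single arrays moved the day 2 value between 0.22 (adjusted p = 0.527) and 0.71, with the highest value reached without replicate 3 of the vehicle arrays and then called (adjusted p = 0.0278). The second MPO probe set, 203948_s_at, was 0.79 ± 0.13 higher at day 4 and 0.32 ± 0.13 higher at day 6 (adjusted p = 0.0373 in the fit over probe sets). Its levels were close to the filter of 4. They were 4.64 in treated and 3.85 in vehicle cells at day 4, and 4.26 and 3.94 at day 6.

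LYZ encodes lysozyme, which cuts bacterial cell walls and is also abundant in monocytes. At day 6 it read 14.78, 15.19 and 14.99 in treated MV4-11 cells, against 14.19, 14.14 and 14.16 with vehicle, with no overlap. It was 0.12 ± 0.11 above vehicle at day 2 (adjusted p = 0.592), 0.44 ± 0.11 at day 4 (adjusted p = 0.00252) and 0.82 ± 0.11 at day 6 (adjusted p = 2.36e-06). Its second probe set, 1555745_a_at, read 15.38, 15.40 and 14.20 in the treated day 6 cells, against 14.33, 14.31 and 14.38 with vehicle. There the array with the high 3′ control signal was the low one, below all vehicle arrays, and the difference was 0.66 ± 0.22.

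RNASE2 encodes the eosinophil-derived neurotoxin, a ribonuclease that neutrophils and monocytes also make. At day 4 it read 12.72, 12.59 and 12.58 in treated MV4-11 cells, against 11.82, 11.88 and 11.75 with vehicle, a difference of 0.81 ± 0.12 (adjusted p = 9.75e-06). At day 6 it read 12.91, 12.86 and 12.30, against 12.42, 12.56 and 12.44 with vehicle, and the groups overlapped through replicate 3 alone. The day 6 difference of 0.21 ± 0.12 was not called (adjusted p = 0.117). Without that replicate it was 0.41 (adjusted p = 0.000319), and with the 3′ control signal as a covariate 0.48 (adjusted p = 0.000487).

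**Figure D2:**
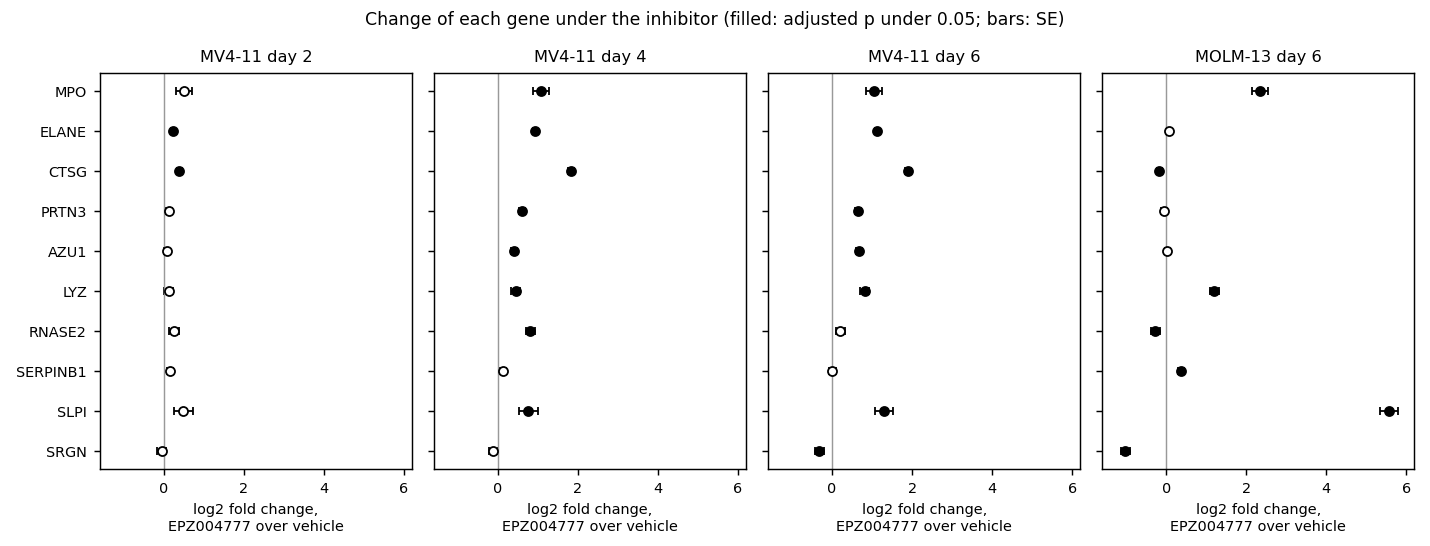
Log2 difference of EPZ004777 over vehicle, with its SE, for the 10 genes in MV4-11 cells at days 2, 4 and 6 and in MOLM-13 cells at day 6. Filled points were called at an adjusted p under 0.05. At day 6 CTSG stands at -0.17 in MOLM-13 cells and 1.89 in MV4-11 cells, and SLPI at 5.57 in MOLM-13 cells and 1.30 in MV4-11 cells.

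Of the inhibitors of these proteases, SLPI rose in MV4-11 cells. It read 6.60, 5.97 and 6.41 in treated MV4-11 cells at day 6, against 5.37, 4.50 and 5.20 with vehicle. All 3 treated arrays were above all 3 vehicle arrays, by 1.30 ± 0.23 (adjusted p = 7.1e-05). At day 4 SLPI read 5.99, 5.0 and 5.44, against 4.73, 4.69 and 4.74 with vehicle, a difference of 0.76 ± 0.23 (adjusted p = 0.0117) that was 0.50 (adjusted p = 0.0921) without replicate 1 of the treated arrays.

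SERPINB1, read from the probe set 212268_at, was at 11.52, 11.47 and 11.21 in treated MV4-11 cells at day 6, against 11.50, 11.35 and 11.33 with vehicle. The groups overlapped and the difference was 0.01 ± 0.08 (adjusted p = 0.944). Other SERPINB1 probe sets gave another reading of the same gene: 213572_s_at was 0.81 ± 0.06 and 228726_at 0.98 ± 0.11 higher at day 6, both called in the fit over probe sets. On 213572_s_at the treated arrays read 11.23, 11.29 and 11.34, against 10.49, 10.54 and 10.41 with vehicle, with no overlap, and replicate 3 did not stand apart. The probe set 239213_at differed by -0.11 ± 0.11. With the 3′ control signal as a covariate the difference on 212268_at was 0.20 (adjusted p = 0.0147). A direction for SERPINB1 in MV4-11 cells therefore depends on the probe set read.

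SRGN encodes serglycin, the proteoglycan core that holds granule proteases. At day 6 it read 15.41, 15.39 and 14.96 in treated MV4-11 cells, against 15.55, 15.58 and 15.59 with vehicle, a difference of -0.32 ± 0.11 (adjusted p = 0.0169). The treated arrays were all below the vehicle arrays, and replicate 3 was the lowest. Without it the difference was -0.17 (adjusted p = 0.144), and with the 3′ control signal as a covariate it was -0.00 (adjusted p = 0.98). In a fit to these 2 groups alone the call was also lost (adjusted p = 0.0924). On the probe set 201859_at the difference was 0.05 ± 0.07. At day 4 the SRGN difference was -0.12 (adjusted p = 0.421), and -0.18 with the covariate, then called (adjusted p = 0.00305). The SRGN probe set 1554676_at differed by -1.85 ± 0.35 at day 6.

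**Figure D3:**
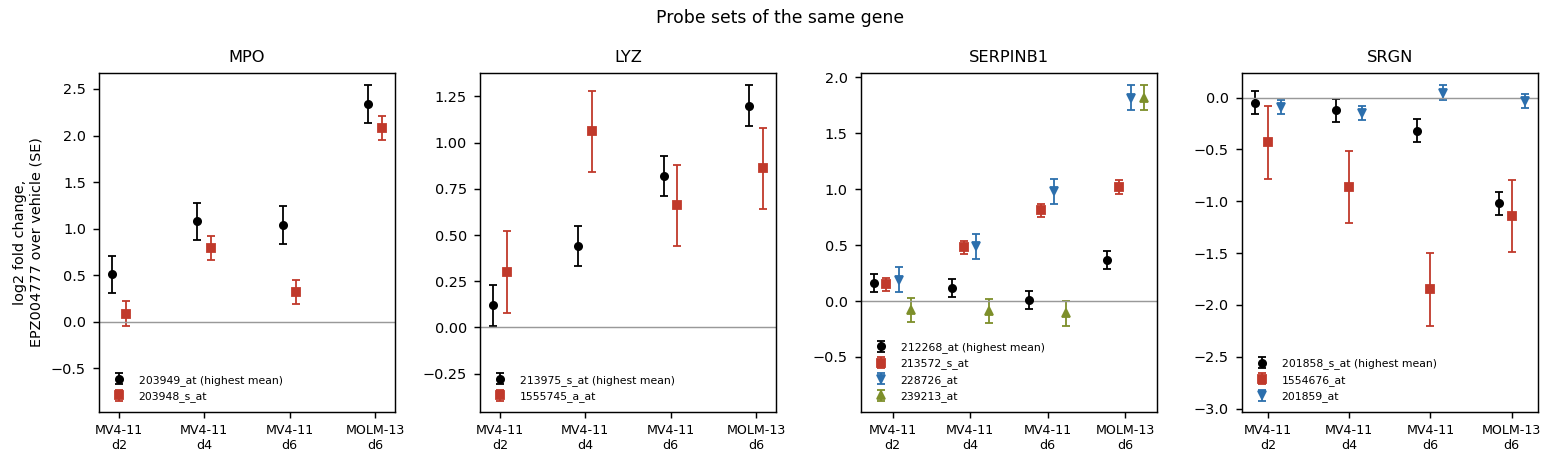
Log2 difference of EPZ004777 over vehicle with its SE for every probe set of MPO, LYZ, SERPINB1 and SRGN, by comparison. The SERPINB1 probe sets range between -0.11 and 0.98 in MV4-11 cells at day 6, and those of SRGN between -1.85 and 0.05.

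The growth of the differences with time was tested as the day 4 difference minus the day 2 difference, and 5 of the 10 genes grew and none shrank (7.22% and 7.77% of all genes). CTSG grew by 1.43 ± 0.11 (adjusted p = 2.08e-08) and ELANE by 0.70 ± 0.07 (adjusted p = 2.57e-06). The calls of AZU1 (0.32, adjusted p = 0.0312) and RNASE2 (0.55, adjusted p = 0.027) were each lost under 7 of 21 alternative settings. Between day 4 and day 6, AZU1 grew by 0.28 ± 0.10 (adjusted p = 0.0458) and the RNASE2 difference changed by -0.60 ± 0.16 (adjusted p = 0.0123), and the other 8 genes passed in neither direction (13.9% and 11.9% of all genes). The AZU1 call was lost under 14 of 21 settings, with 0.17 under the covariate (adjusted p = 0.303). For RNASE2 it held without any single array and was lost with the covariate (-0.28, adjusted p = 0.189) and with only the arrays of the comparison (adjusted p = 0.053). The RNASE2 change lay in the vehicle arrays, with means of 11.82 at day 4 and 12.48 at day 6. The treated means were 12.63 and 12.69.

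Part of the day 4 values rests on the vehicle arrays. Day 4 vehicle cells against day 2 vehicle cells were lower in 4 of the 10 genes and higher in 1 (14.1% and 12.9% of all genes). RNASE2 differed by -0.53 ± 0.12, CTSG by -0.44 ± 0.07, PRTN3 by -0.42 ± 0.08 and ELANE by -0.36 ± 0.05, while SERPINB1 was 0.25 ± 0.08 higher, a call lost under 6 of 15 settings. By day 6, vehicle cells were lower than at day 2 in ELANE alone, by -0.25 ± 0.05, and higher in none (0.337% and 0.784% of all genes), and the ELANE call was lost under 6 of 15 settings. Against the joint vehicle arrays of days 2 and 6, the day 4 difference of RNASE2 was 0.22 (adjusted p = 0.0662) and that of SLPI 0.48 (adjusted p = 0.0508), so both lost the call. That of PRTN3 was 0.30, called but smaller than the 0.60 against the day 4 vehicle arrays.

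Among treated MV4-11 cells alone, day 4 against day 2 was higher in 4 genes and lower in none (18.6% and 20.0% of all genes): CTSG by 0.99 ± 0.07, MPO by 0.90 ± 0.20, ELANE by 0.34 ± 0.05 and AZU1 by 0.32 ± 0.07. PRTN3 (0.06 ± 0.08) and RNASE2 (0.03 ± 0.12) did not pass this test. Day 6 against day 4 was higher in 5 and lower in none (14.0% and 9.89% of all genes): SLPI by 0.85 ± 0.23, LYZ by 0.63 ± 0.11, CTSG by 0.43 ± 0.07, ELANE by 0.29 ± 0.05 and PRTN3 by 0.23 ± 0.08. The PRTN3 call was lost under 9 of 15 settings, and SLPI was 0.61 (adjusted p = 0.0833) without replicate 2 of the treated day 4 arrays. MPO differed by 0.00 ± 0.20 between these days, and its second probe set, 203948_s_at, by -0.37 ± 0.13 (adjusted p = 0.0384 in the fit over probe sets).

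The 2 lines began from different levels. MOLM-13 vehicle cells at day 6 against MV4-11 vehicle cells were higher in 7 of the 10 genes and lower in none (30.7% and 33.0% of all genes). MPO read 11.09, 11.28 and 11.34 in MOLM-13 vehicle cells, against 6.12, 6.14 and 6.00 in MV4-11 vehicle cells, a difference of 5.15 ± 0.20 or 35.5-fold (adjusted p = 7.41e-15). ELANE was 1.92 ± 0.05, PRTN3 1.63 ± 0.08, RNASE2 1.26 ± 0.12, AZU1 1.02 ± 0.07, CTSG 0.86 ± 0.07 and SERPINB1 0.48 ± 0.08 higher in MOLM-13. SLPI (0.14 ± 0.23), LYZ (-0.02 ± 0.11) and SRGN (-0.03 ± 0.11) did not pass the test. On the second LYZ probe set, 1555745_a_at, MOLM-13 vehicle cells were at 13.36 ± 0.22 and MV4-11 vehicle cells at 14.34 ± 0.04 (SD, n = 3).

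In treated MOLM-13 cells SLPI, MPO, LYZ and SERPINB1 rose and SRGN fell, while the serine protease genes differed by at most 0.17 on the log2 scale. Of the 10 genes, 4 were higher and 3 lower, against 29.3% of all tested genes higher and 36.5% lower. The median over the 10 was 0.05, and over all tested genes -0.03.

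SLPI read 10.75, 10.42 and 11.04 in treated MOLM-13 cells, against 5.06, 5.29 and 5.15 with vehicle, with no overlap. The difference was 5.57 ± 0.23 (adjusted p = 1.64e-13), a 47.6-fold higher level. MPO read 13.58, 13.51 and 13.63, against 11.09, 11.28 and 11.34 with vehicle, a difference of 2.34 ± 0.20 or 5.05-fold (adjusted p = 4.53e-09). The second MPO probe set gave 2.08 ± 0.13. LYZ read 15.26, 15.34 and 15.45, against 14.37, 14.08 and 14.00 with vehicle, a difference of 1.20 ± 0.11 (adjusted p = 1.48e-08). In these 3 genes every treated array was above every vehicle array.

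SERPINB1 read 12.35, 12.08 and 12.30 in treated MOLM-13 cells, against 11.85, 11.92 and 11.86 with vehicle, a difference of 0.37 ± 0.08 (adjusted p = 0.000541). In this line all 4 of its probe sets were higher: 213572_s_at by 1.02 ± 0.06, 228726_at by 1.82 ± 0.11 and 239213_at by 1.82 ± 0.11. The groups did not overlap on 212268_at either.

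Among the serine protease genes, ELANE, PRTN3 and AZU1 did not pass the test in MOLM-13 cells. ELANE read 15.13, 15.11 and 15.13 with EPZ004777, against 15.02, 15.09 and 15.08 with vehicle (0.06 ± 0.05, adjusted p = 0.302), and on a common median the difference was 0.15 (adjusted p = 0.0196). PRTN3 read 15.32, 15.24 and 15.29, against 15.15, 15.45 and 15.40 with vehicle (-0.05 ± 0.08, adjusted p = 0.624). AZU1 read 14.88, 15.03 and 14.97, against 14.82, 14.93 and 15.03 with vehicle (0.03 ± 0.07, adjusted p = 0.705). The PRTN3 and AZU1 arrays overlapped between treatments, and those of ELANE were set apart by a narrow gap that did not pass the test. These levels lie near the highest value on the arrays, 16.1, and whether the probe sets still respond in proportion there was not tested.

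CTSG read 13.44, 13.09 and 13.29 in treated MOLM-13 cells, against 13.34, 13.53 and 13.47 with vehicle, and the groups overlapped. Its difference of -0.17 ± 0.07 was called by a small margin (adjusted p = 0.0466) and turned to 0.12 (adjusted p = 0.396) with the 3′ control signal as a covariate. The call changed under 10 of 15 alternative settings. RNASE2 read 13.42, 13.43 and 13.55, against 13.66, 13.89 and 13.65 with vehicle, a difference of -0.27 ± 0.12 (adjusted p = 0.0493) that the covariate turned to 0.30 (adjusted p = 0.117) and whose call changed under 9 of 15 settings.

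SRGN read 14.74, 14.19 and 14.63 in treated MOLM-13 cells, against 15.53, 15.59 and 15.49 with vehicle, a difference of -1.02 ± 0.11 (adjusted p = 1.42e-07). Every treated array was below every vehicle array. With the covariate the difference was -0.34, still called. On the probe set 201859_at it was -0.03 ± 0.07, and on 1554676_at -1.14 ± 0.35 (adjusted p = 0.0086 in the fit over probe sets). Among the 3 treated MOLM-13 arrays, the one with the largest 3′ control excess, replicate 2 at 2.84, had the lowest SRGN and the lowest CTSG level.

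**Figure D4:**
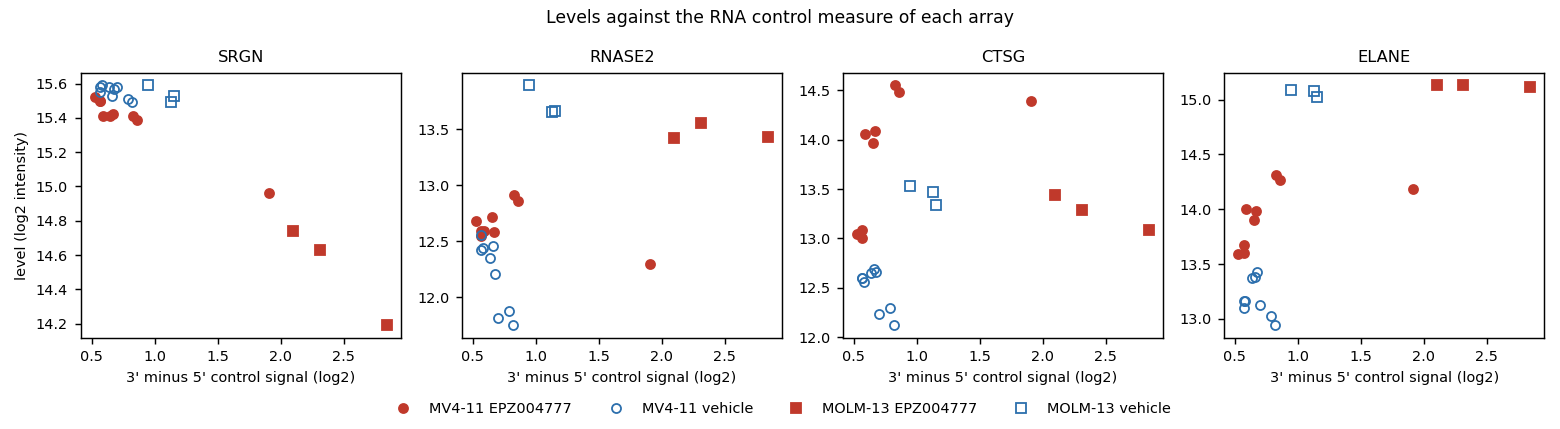
Log2 level of SRGN, RNASE2, CTSG and ELANE against the 3′ minus 5′ control signal (log2) of the same array, 24 arrays, with EPZ004777 filled and vehicle open. Treated MOLM-13 arrays lie at 2.10 to 2.84 and 17 of the MV4-11 arrays at 0.53 to 0.86, so line, treatment and control signal are not spread independently, and SRGN is lowest, at 14.19, on the array with the highest control signal.

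The difference between the lines at day 6 was tested for each gene, as the MOLM-13 difference minus the MV4-11 difference, and all 10 genes passed, 4 higher and 6 lower (19.4% and 32.7% of all genes). SLPI was 4.27 ± 0.33 and MPO 1.29 ± 0.28 higher in MOLM-13. CTSG was lower by -2.06 ± 0.11 (adjusted p = 8.28e-12), ELANE by -1.05 ± 0.07, PRTN3 by -0.69 ± 0.11 and AZU1 by -0.64 ± 0.10. In MOLM-13 cells ELANE, PRTN3 and AZU1 lay near the highest value on the arrays, 16.1. The effect of this on their values here was not tested. The LYZ value of 0.38 ± 0.16 passed by a small margin (adjusted p = 0.0487), and its call changed under 14 of 21 settings. The RNASE2 value of -0.48 ± 0.16 (adjusted p = 0.0192) lost the call under 6 of 21 settings, among them the covariate (-0.18, adjusted p = 0.28) and a common median (-0.32, adjusted p = 0.102). For SRGN the value of -0.70 ± 0.16 was -0.02 (adjusted p = 0.936) with the mean of its probe sets, and -0.34 with the covariate, still called (adjusted p = 0.0012). SERPINB1 was 0.36 higher in MOLM-13 (adjusted p = 0.0133), a call lost in a fit to these 4 groups alone (adjusted p = 0.0557).

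Ordered over the 8 groups, each gene had its own ranking. For ELANE the order was vehicle MV4-11 at day 4 (13.04), day 6 (13.14) and day 2 (13.39), then treated MV4-11 at day 2 (13.62), day 4 (13.96) and day 6 (14.25), then MOLM-13 with vehicle (15.06) and with EPZ004777 (15.13). Only the 2 lowest of these neighbours overlapped. For CTSG the 2 highest groups were treated MV4-11 cells at day 6 (14.47) and day 4 (14.04), above vehicle (13.45) and treated (13.27) MOLM-13 cells. The MOLM-13 groups overlapped each other, and the treated ones also overlapped treated MV4-11 cells at day 2 (13.05). For SLPI, 7 groups lay between 4.72 and 6.33 and the treated MOLM-13 group at 10.74.

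The genes whose group means followed those of MPO, ELANE and CTSG most closely were named by Pearson's r over the 8 group means, which share line and treatment, as a description. For MPO they were NUDT3 (0.997), CMTM4 (0.996) and LINC00926 (0.995). For ELANE they were GXYLT2 (0.998), PON2 (0.993) and RASSF2 (0.992), with its chromosome 19 partners PRTN3 and AZU1 at 0.984 each. For CTSG they were GALNT7 (0.991), CDK20 (0.984) and LRRK1 (0.984). CTSG had r of 0.578 with ELANE and 0.257 with MPO.

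The chromosome 19 cluster was set against the genes beside it. In chromosome order the genes were PTBP1, PLPPR3, AZU1, PRTN3, ELANE, CFD and MED16. CFD encodes complement factor D, a serine protease of the complement system, and its difference in MV4-11 cells was 0.52 ± 0.05, 1.01 ± 0.05 and 1.09 ± 0.05 at days 2, 4 and 6. It was at 15.16 ± 0.05 in treated and 14.07 ± 0.03 in vehicle MV4-11 cells at day 6 (SD, n = 3). In MOLM-13 cells CFD fell, with 13.37 ± 0.05 in treated and 13.94 ± 0.03 in vehicle cells, a difference of -0.57 ± 0.05 (adjusted p = 4.16e-09). PLPPR3, on the other side, was called at day 6 in MV4-11 cells alone (0.85 ± 0.14). PTBP1, a splicing regulator, fell at day 4 in MV4-11 cells (-0.19 ± 0.07) and did not pass in the other 3 comparisons. MED16, a Mediator subunit, rose by 0.38 ± 0.16 at day 6 in MV4-11 cells and by 0.54 ± 0.16 in MOLM-13 cells, and with the covariate these were -0.01 and -0.29.

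**Figure D5:**
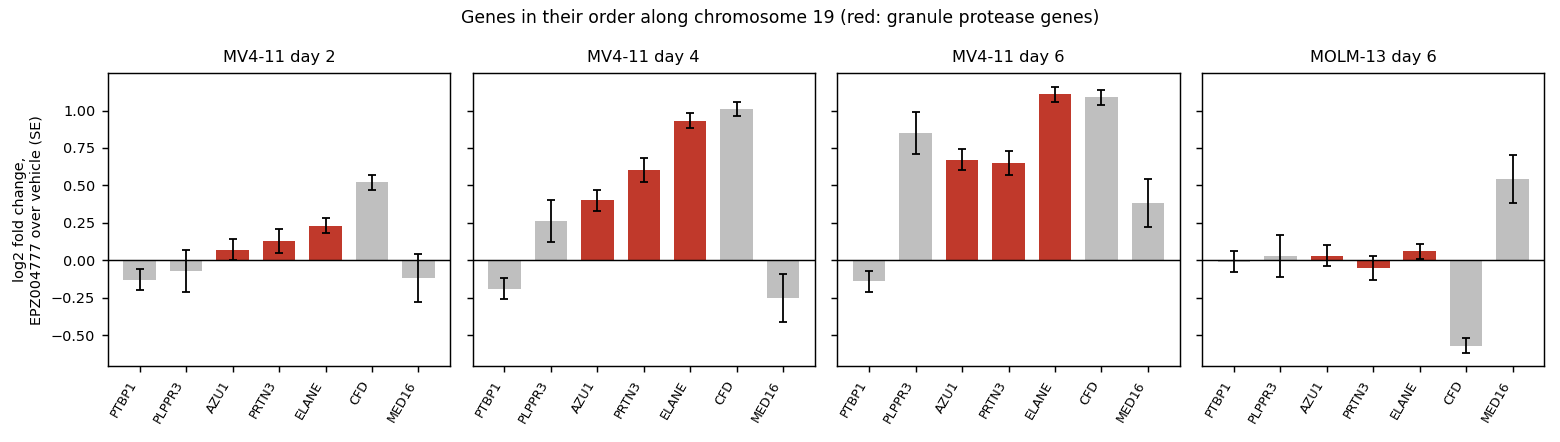
Log2 difference of EPZ004777 over vehicle with its SE for 7 genes in chromosome order around AZU1, PRTN3 and ELANE, in the 4 comparisons. CFD rises in MV4-11 cells, to 1.09 at day 6, and is lower in MOLM-13 cells, at -0.57.

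Around all the members, 32 distinct neighbouring genes were tested, up to 2 on each side. In MV4-11 cells 7 were higher and none lower at day 2 (8.82% and 3.68% of all genes). At day 4, 9 were higher and 4 lower (25.2% and 21.0%), and at day 6, 9 higher and 12 lower (33.6% and 28.4%). In MOLM-13 cells 10 were higher and 13 lower (29.3% and 36.5%). TSPOAP1, next to MPO, read 8.35 ± 0.14 in treated and 2.73 ± 0.28 in vehicle MV4-11 cells at day 6 (SD, n = 3), a difference of 5.61 ± 0.21 (adjusted p = 4.52e-14). In MOLM-13 cells it was high with either treatment, at 11.86 ± 0.14 in treated and 10.98 ± 0.06 in vehicle cells (0.88 ± 0.21). MPO thus had a neighbour with a larger difference than its own 1.04 in MV4-11 cells. LPO, the lactoperoxidase gene on the other side of MPO, was 1.06 ± 0.35 higher in treated MV4-11 cells at day 6. Its levels were close to the filter of 4, at 4.53 ± 0.79 in treated and 3.47 ± 0.25 in vehicle cells (SD, n = 3). The LPO call was lost under 2 alternatives.

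CPM, a membrane carboxypeptidase gene near LYZ, was higher by 1.28 ± 0.07 in MV4-11 and 0.20 ± 0.07 in MOLM-13 cells at day 6. NDRG2, near RNASE2, was higher by 1.10 ± 0.16 in MV4-11 cells already at day 2, by 1.09 ± 0.16 at day 6 and by 1.11 ± 0.16 in MOLM-13 cells. All 4 tested genes around SRGN fell at day 6 in both lines, where 28.4% of all genes fell in MV4-11 and 36.5% in MOLM-13 cells. KIFBP fell by 0.77 in MV4-11 and 0.99 in MOLM-13 cells, DDX21 by 0.42 and 0.95, VPS26A by 0.35 and 0.64, and SUPV3L1 by 0.21 and 0.32. A link between these falls and that of SRGN was not tested. GMDS, near SERPINB1, rose by 0.64 ± 0.06 at day 6 in MV4-11 cells and fell by 0.35 ± 0.06 in MOLM-13 cells.

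The other neighbours called higher at day 6 in MV4-11 cells were PLPPR3, MED16, CFD and SDR39U1 (0.38 to 1.09), and those called lower were MKS1, KHNYN, G2E3, CPSF6, CCT2, WRNIP1, TOMM34 and SDC4 (-0.66 to -0.20). In MOLM-13 cells RNASE6, METTL17, WRNIP1, BPHL, STK4, SDR39U1 and MED16 were also higher (0.15 to 0.75), and MKS1, SUPT4H1, CFD, SCFD1, CPSF6, YEATS4, CCT2 and NQO2 were also lower (-1.67 to -0.23). At day 4 in MV4-11 cells SUPT4H1 (0.21), PNP (0.38) and RNASE6 (0.50) were higher and NQO2 (-0.69) was lower, without a call at day 6. RNASE6, next to RNASE2, was also higher at day 2 (0.54) and differed by -0.12 at day 6. The SUPT4H1 call was lost under 9 alternatives.

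Of 17 further genes listed for primary granule contents, 9 were tested. BPI, DEFA1, DEFA3, DEFA4, RNASE3 and PRSS57 were not among those tested. Of the 9, 5 rose and none fell in MV4-11 cells at day 6. Over all genes 33.6% rose and 28.4% fell. In MOLM-13 cells 8 rose and 1 fell (29.3% and 36.5% of all genes). The medians were 0.49 and 0.36, and those of all tested genes 0.04 and -0.03. MS4A3, a membrane protein of granulocyte progenitors, rose by 0.49 in MV4-11 and 1.11 in MOLM-13 cells. In the same order of lines CTSD, the lysosomal aspartic protease cathepsin D, rose by 0.67 and 1.11, CTSB, cathepsin B, by 0.60 and 0.36, and ACP2, a lysosomal acid phosphatase, by 0.67 and 0.49. CD63, a granule membrane tetraspanin, differed by 0.02 in MV4-11 cells, not called, and rose by 0.38 in MOLM-13 cells. At day 4 in MV4-11 cells CTSD was lower by -0.48, and 0.19 higher (adjusted p = 0.171) against the other vehicle arrays. The one that fell in MOLM-13 cells was ARSB, a lysosomal sulfatase, by 0.74.

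Genes that process, fold or sort the granule enzymes were mixed. Of 19, 9 rose and 5 fell in MV4-11 cells at day 6 (33.6% and 28.4% of all genes). In MOLM-13 cells 5 rose and 5 fell (29.3% and 36.5%). The medians in MV4-11 and MOLM-13 cells were 0.15 and 0.10. CTSC, the activating protease, was lower by -0.20 in MV4-11 cells at day 6, with the call lost under 8 alternatives, and by -0.64 in MOLM-13 cells. CTSS, the lysosomal cysteine protease cathepsin S, rose by 1.28 in MV4-11 cells and was 0.11 above vehicle in MOLM-13 cells, not called. VPS13B, a Golgi protein whose loss causes neutropenia in Cohen syndrome, rose by 1.02 and 0.62. STXBP2, which acts in granule fusion, rose by 0.85 in MV4-11 cells and differed by 0.10 in MOLM-13 cells, not called. G6PC3, a glucose-6-phosphatase needed by neutrophils, was 0.27 higher in MV4-11 and 0.71 higher in MOLM-13 cells on its main probe set and -0.07 and -0.33 with the mean of its probe sets, so its direction turns with that choice. RAB27A, a small GTPase of granule release, fell by 0.83 in MV4-11 cells and differed by -0.19 in MOLM-13 cells, not called.

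Of 12 other tested protease inhibitors, 9 rose and 1 fell in MV4-11 cells at day 6 (33.6% and 28.4% of all genes). In MOLM-13 cells 8 rose and 3 fell (29.3% and 36.5%). The medians in MV4-11 and MOLM-13 cells were 0.63 and 0.42. SERPINB10, a serpin of blood cells also called bomapin, read 8.06 in treated and 3.08 in vehicle MOLM-13 cells, a difference of 4.98, and rose by 1.70 in MV4-11 cells. SERPINB8, a relative of SERPINB1, rose by 2.24 in MOLM-13 cells and fell by 0.55 in MV4-11 cells. SPINT1, an inhibitor of membrane serine proteases, rose by 1.39 in MOLM-13 and 1.58 in MV4-11 cells, and CST3, cystatin C, rose by 1.30 in MOLM-13 and 1.26 in MV4-11 cells. CST7, cystatin F, an inhibitor of CTSC, fell by 1.42 in MOLM-13 cells and rose by 1.13 in MV4-11 cells. TIMP1, the metalloprotease inhibitor, rose by 0.42 in MOLM-13 and 0.97 in MV4-11 cells. The difference between lines was not tested for the genes of this list.

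Of 15 genes that build the chondroitin sulfate chains carried by serglycin, 7 rose and 4 fell in MV4-11 cells at day 6. Over all genes 33.6% rose and 28.4% fell. In MOLM-13 cells 11 rose and 3 fell (29.3% and 36.5% of all genes). The medians in MV4-11 and MOLM-13 cells were 0.30 and 0.47. CSGALNACT1, which starts the chain, rose by 4.56 in MV4-11 and 1.58 in MOLM-13 cells. CHSY1, which extends it, fell by 1.25 in MV4-11 and 0.31 in MOLM-13 cells, and CHST11, which adds sulfate, fell by 0.67 in MV4-11 and 0.75 in MOLM-13 cells. The polymerizing factors CHPF and CHPF2 rose by 1.29 and 0.76 in MOLM-13 cells, and in MV4-11 cells CHPF differed by -0.25, not called, and CHPF2 rose by 0.79.

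Genes of secondary and tertiary granules, made later in maturation, were mostly below the filter: 7 of 23 listed were tested. In MOLM-13 cells 5 rose and 1 fell (29.3% and 36.5% of all genes), with a median of 1.66. A gene could pass the filter through the 3 arrays of a single group in which it was high. These counts and the median can therefore favour genes that rose, and the listed genes below the filter are left out of them. Those that rose included HP, haptoglobin, by 4.29, CYBB, the oxidase subunit, by 4.07, and ORM1, an acute phase protein, by 2.81. In MV4-11 cells at day 6 only MMP9 (0.75) and CHI3L1 (1.15) rose and none fell (median 0.05). Over all genes 33.6% rose and 28.4% fell in that comparison. In MOLM-13 cells MMP9, gelatinase B, rose by 1.66 and CHI3L1 by 1.61.

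Of 17 transcription factors known for primary granule genes, 3 rose and 6 fell in MV4-11 cells at day 6. Over all genes 33.6% rose and 28.4% fell. In MOLM-13 cells 8 rose and 5 fell (29.3% and 36.5% of all genes). The medians in MV4-11 and MOLM-13 cells were -0.13 and 0.21. CEBPA rose by 0.32 at day 4 and 0.58 at day 6 in MV4-11 cells and differed by -0.08 in MOLM-13 cells, not called. CEBPE, which acts late in granulocytes, rose by 1.09 and CEBPD by 1.35 in MOLM-13 cells and neither was called at day 6 in MV4-11 cells (0.09 and 0.08). SPI1, which encodes PU.1, was called in none of the 4 comparisons (-0.17, -0.32 and -0.28 in MV4-11 cells at days 2, 4 and 6, and 0.30 in MOLM-13 cells). MYB passed at day 4 in MV4-11 cells alone, by -0.13, and this value was 0.08 with the mean of its probe sets. CEBPB fell by 0.37 in MV4-11 cells at day 6 and rose by 0.32 in MOLM-13 cells, and CBFB, the partner of RUNX1, fell by 0.36 and 1.16. CUX1, a repressor of late granule genes, rose by 0.91 in MV4-11 cells at day 6 and 0.39 in MOLM-13 cells. EGR1 fell by 4.82 ± 0.46 in MV4-11 cells at day 6 and fell by 4.65 ± 0.46 in MOLM-13 cells.

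Markers of neutrophils and monocytes were read in the same comparisons. Of 8 tested neutrophil and promyelocyte markers, 6 rose in MV4-11 cells at day 6 and all 8 in MOLM-13 cells, and none fell. Over all genes 33.6% and 29.3% rose, and 28.4% and 36.5% fell. MS4A3 is among these markers and is also counted with the primary granule contents. S100A8, a calgranulin subunit, rose by 3.92 and 3.55, S100A9 by 2.14 and 4.04, and CSF3R, the G-CSF receptor, by 1.18 and 1.09. The summed intensity of the 9 markers read ran between 25439 and 26806 in treated and between 17798 and 18404 in vehicle MV4-11 cells at day 6, and between 22248 and 22752 in treated and between 9623 and 11043 in vehicle MOLM-13 cells. FCGR3B, a marker of mature neutrophils, was at the lowest value in all 8 groups. CEACAM6 was at it in vehicle and not in treated MOLM-13 cells, so in that comparison it could count only as higher.

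Of 7 tested monocyte and macrophage markers, 5 rose in MV4-11 cells at day 6 and 6 in MOLM-13 cells, and none fell. Over all genes 33.6% and 29.3% rose, and 28.4% and 36.5% fell. CSF1R, the M-CSF receptor, differed between EPZ004777 and vehicle by 1.90 and 1.41, in the same order of lines. The summed intensity of 11 markers ran between 7346 and 7862 in treated and between 3063 and 3281 in vehicle MV4-11 cells at day 6, and between 3111 and 3266 in treated and between 1704 and 1805 in vehicle MOLM-13 cells. Of the 11, 6 were at the lowest value in treated and in vehicle MV4-11 cells at day 6. In MOLM-13 cells 4 were at it with EPZ004777 (FCGR1A, CD163, MRC1 and FCN1) and 6 with vehicle. CD14 was at the lowest value in all MV4-11 groups and at 4.42 in treated and 2.19 in vehicle MOLM-13 cells. CD14 and VCAN were at the lowest value in every group but treated MOLM-13 cells. A marker that passed the filter through that group alone could count there only as higher. The part of a shift in cell makeup in the member results was not tested.

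RNASE2 is also an eosinophil product. Of 6 eosinophil markers, 2 were tested. In MV4-11 cells at day 6, 1 was higher and none lower (33.6% and 28.4% of all genes). In MOLM-13 cells none was higher and 1 was lower (29.3% and 36.5%). PRG2, which encodes major basic protein, was 2.65 higher in treated MV4-11 cells at day 6. The summed intensity of the 6 ran between 86 and 135 in treated and between 35 and 36 in vehicle MV4-11 cells at day 6, and between 26275 and 27437 in treated and between 21313 and 22195 in vehicle MOLM-13 cells. PRG2 was at 14.7 in treated and 14.4 in vehicle MOLM-13 cells, so the marker called lower there was the other tested one. EPX, the eosinophil peroxidase gene, was at the lowest value in vehicle MV4-11 cells at each day.

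For other lineages the lists were short. Over all genes 33.6% rose and 28.4% fell in MV4-11 cells at day 6, and 29.3% and 36.5% in MOLM-13 cells. Of 2 tested mast cell and basophil markers, 1 rose and 1 fell in MV4-11 cells at day 6, and none passed in MOLM-13 cells. Of 4 B-lymphoid markers, 2 rose and none fell in MV4-11 cells at day 6, and in MOLM-13 cells IGLL1 fell by 3.67 and no other passed. Of 3 T and NK cell markers, 2 rose in MV4-11 and 3 in MOLM-13 cells. NKG7, a cytotoxic granule membrane protein, was also the only one of 8 listed granzyme and cytotoxic granule genes that was tested, and it rose in all 4 comparisons. The 1 tested erythroid marker fell in MV4-11 cells at day 6 and did not pass in MOLM-13 cells, and of 2 megakaryocyte and platelet markers 2 rose in MV4-11 and 1 in MOLM-13 cells.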

How the data were processed

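RNA from 24 samples was measured on arrays of 54675 probe sets. Per the submitters' processing notes the intensities were made with GCRMA, version not given in the sources used here. The deposited values are linear intensity (4.551 to 71593, 34.6% to 37.2% of probe sets per array at the array's lowest value), not log2 as first assumed, so log2 was taken here from the deposited values without a pseudocount. On arrays, precision is limited by the number of arrays. Of the probe sets, 41097 had 1 gene in the platform annotation, 1801 several and 11777 none, and only those with 1 gene were named. Each gene was read from its probe set with the highest mean over 24 arrays, kept at log2 of at least 4 in at least 3 arrays. A gene can pass this filter through a single group in which it is high. Counts over gene lists can therefore favour genes that changed in that group.

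One limma 3.58.1 model (R 4.3.3) over the 8 groups, with groups as means and no covariate, gave differences with SE, and p-values were adjusted by Benjamini-Hochberg over 10971 genes. A separate fit over probe sets gave the values of single probe sets. Tables and figures used Python 3.11.15, numpy 2.4.6, pandas 2.3.3 and matplotlib 3.10.9, and the fit was tested on simulated data. Samples were grouped by the labels' line, agent and day.

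The members and gene lists were chosen with earlier results of these data known. Every member was described. From each list of other pathway genes up to 5 with the lowest adjusted p in any treatment comparison were named, with genes whose action on the members is background. ARSB and CST7 were chosen after their values were seen. Neighbours were the 2 tested genes on either side, and genes most like MPO, ELANE and CTSG the 3 with the highest Pearson correlation of group means. Alternatives were quantile and median scaling, no filter, the mean of probe sets, other limma settings, the 3′ control signal as a covariate, other vehicle arrays at day 4, a replicate block, a 2-fold minimum and leaving out each array.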

Additional observations from a re-analysis of the deposited data

Results flagged for a closer look

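Each value here is a difference between 2 treatment differences in the limma model, with its adjusted p over all tested genes. In MV4-11 cells the difference between EPZ004777 and vehicle was larger at day 4 than at day 2 for CTSG by 1.43 (adjusted p = 2.08e-08), for ELANE by 0.70 (2.57e-06), for RNASE2 by 0.55 (0.027), for PRTN3 by 0.47 (0.00757) and for AZU1 by 0.32 (0.0312). The day 4 vehicle arrays were lower than the day 2 ones in CTSG, ELANE, PRTN3 and RNASE2, which raises these 4 values. At day 6 against day 4 the difference was larger by 0.28 for AZU1 (0.0458) and was -0.60 for RNASE2 (0.0123). With the 3′ control signal as a covariate these were 0.17 (adjusted p = 0.303) and -0.28 (adjusted p = 0.189), neither called. The RNASE2 vehicle mean was 11.82 at day 4 and 12.48 at day 6, while the treated mean was 12.63 and 12.69.

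Between the lines at day 6, as MOLM-13 minus MV4-11, the treatment difference was higher for SLPI by 4.27 (adjusted p = 3.72e-09), for MPO by 1.29 (0.000643), for LYZ by 0.38 (0.0487) and for SERPINB1 by 0.36 (0.0133). It was -2.06 for CTSG (8.28e-12), -1.05 for ELANE (1.21e-09), -0.69 for PRTN3 (5.27e-05), -0.64 for AZU1 (2.44e-05), -0.48 for RNASE2 (0.0192) and -0.70 for SRGN (0.000967). ELANE, PRTN3 and AZU1 lay near the highest value on the arrays, 16.1, in MOLM-13 cells. The effect of this on their values was not tested. With the mean of the probe sets the SRGN value was -0.02 (adjusted p = 0.936), and with the 3′ control signal as a covariate the RNASE2 value was -0.18 (adjusted p = 0.28) and the LYZ value 0.35 (adjusted p = 0.12). The other causes of a difference between the lines, fusion and medium among them, cannot be told apart.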

How the results depend on the processing

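Over 79 results on the 10 members, 1175 recomputed values kept direction and call, 97 lost the call, 11 gained one and 14 changed sign, and over 195 results on 79 other named genes 2793 kept both, 158 lost the call and 13 changed sign. Of 128 counts over gene lists, 46 moved by over 1.5 times under at least 1 alternative. The cause of each change below was not tested.

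The values whose sign changed were these. SERPINB1 in MV4-11 cells at day 6 was -0.07 on a common median and -0.05 to -0.01 without single arrays (-0.05, -0.03, -0.03 and -0.01). In MOLM-13 cells CTSG was 0.01 after quantile normalization and 0.12 with the 3′ control signal as a covariate, PRTN3 was 0.04 on a common median, 0.17 with the covariate and -0.14 to 0.01 without single arrays, AZU1 was -0.15 with the covariate and -0.00 and -0.02 without single arrays, and RNASE2 was 0.30 with the covariate. Against the other vehicle arrays, the day 4 values of CTSD, ARSB, CHI3L1 and G6PC3 were 0.19, -0.09, 0.58 and -0.01. With the mean of probe sets MYB was 0.08 at day 4, KHNYN 0.12 and G6PC3 -0.07 at day 6 in MV4-11 cells, and SCFD1 0.33, NQO2 0.13 and G6PC3 -0.33 in MOLM-13 cells. With the covariate MED16 was -0.01 in MV4-11 and -0.29 in MOLM-13 cells and NQO2 0.06 in MOLM-13 cells.

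The number of members called moved as follows. With a 2-fold minimum it was 0, 2 and 4 in MV4-11 cells at days 2, 4 and 6, 4 in MOLM-13 cells, 1 for day 4 minus day 2, 0 for day 6 minus day 4, 4 between the lines, and 0 for the vehicle days and the treated days. For day 6 minus day 4 it was 2, and 1 with no filter, on a common median, with the replicate block and with the covariate, 0 with the comparison's own arrays, 4 with a trended robust prior and 1 to 3 without single arrays. Without single arrays it was 3 to 5 for day 4 minus day 2, 0 to 2 for vehicle day 6 over day 2, and 3 to 6 for treated day 6 over day 4. With the comparison's own arrays it was 0 for vehicle day 6 over day 2 and 3 for treated day 6 over day 4.

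Over all genes, calls at day 2 in MV4-11 cells were 1372 and 909 without vehicle replicate 1. With the covariate they were 4339 and not 7214 in MOLM-13 cells, 1497 and not 2824 for day 6 minus day 4, 1575 and not 2626 for treated day 6 over day 4, and 214 and not 123 for vehicle day 6 over day 2. Vehicle day 4 over day 2 had 2958 calls and 1871 without day 4 vehicle replicate 3, vehicle day 6 over day 2 had 4 with its own arrays and 28 to 366 without single arrays, and treated day 6 over day 4 had 861 with its own arrays.

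Deviations of same-numbered treated and vehicle arrays correlated at -0.26 to 0.10, so the replicate numbers were not taken to pair samples. With the replicate block the MOLM-13 values of CTSG (adjusted p = 0.0592) and RNASE2 (adjusted p = 0.0523) and the LYZ difference between lines (adjusted p = 0.0593) lost the call, as did AZU1 for day 6 minus day 4 (adjusted p = 0.0504) and PRTN3 for treated day 6 over day 4 (adjusted p = 0.0647).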
